A study of Caenorhabditis elegans with 8 samples.

Results

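Total RNA of whole Caenorhabditis elegans embryos was compared with total RNA of early larvae, at the L1 and L2 stages. The comparison took 2 of the 8 samples of the series, chosen by the labelled stage and molecule, and with them 6 of the 24 numbered columns of the deposited table. Both groups were wild-type worms of strain Bristol N2, with no added allele or agent. The embryos were of mixed stages and were freed from well-fed, mixed-stage cultures with hypochlorite. The larvae hatched without food at 20 °C and were then fed in liquid culture. Mid-L1 animals (6 to 8 h), animals at the L1/L2 molt (12 to 14 h) and mid-L2 animals (18 to 20 h) were pooled in volumes of 5, 2 and 5. Each sample is therefore a pool of whole animals of several ages. The labels define 1 sample per stage, and the table gives 3 numbered columns for each. As the labels do not say whether these are separate cultures, p-values measure only the spread between the 3 columns, which may be technical.

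The C. elegans embryo starts from RNA and protein that the mother lays down, divides rapidly while cell fates are set, and then elongates inside the eggshell and builds its first cuticle before it hatches. The hatched larva feeds with a working pharynx, gut, musculature and nervous system, and it grows mainly by enlarging its cells. At each moult the epidermis makes a new cuticle, and the old one is shed.

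The table lists 25509 genes and 1541 EERs, or editing-enriched regions, where A-to-I editing clusters, as it does in double-stranded RNA. Values are FPKM, the fragments on a feature scaled to its length and to library size. The 6 columns held 420464 to 914422 reads, recovered from the steps between FPKM values. A feature was tested where FPKM reached 1 in at least 3 of the 6 columns, which 1 stage alone can meet. That left 14360 genes, with a median of 83 reads over the 6 columns, and 1057 EERs, with a median of 11. Differences below are L1-L2 minus embryo on the log2(FPKM + 1) scale, which understates changes of low genes. "Higher" and "lower" mean at least 2-fold in L1-L2 larvae against embryos on that scale, with an adjusted p under 0.05 in limma. Over the 2919 features with a mean of at least 50 reads per column, columns of 1 stage correlated at 0.948 to 0.964. Columns of different stages correlated there at 0.431 to 0.503.

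Embryos and early larvae held widely different mRNA populations. Of the 14360 tested genes, 3241 (22.6%) were higher in L1-L2 larvae and 3431 (23.9%) were lower, 46.5% in all. These shares are the background for every gene list below, beside a median difference over all tested genes of -0.06. Setting the column medians equal moved that median to 0.05. At 4-fold, 2028 genes were higher and 1690 lower, and at 16-fold 466 and 396. The 3 L1-L2 columns lay above the 3 embryo columns in 29.4% of tested genes and below them in 32.5%. The share of gene reads on rRNA genes was 2.09% ± 1.05 in embryos and 3.64% ± 0.874 in larvae (SD, n = 3), and its part in the differences was not tested. In whole animals, fewer cells of a type and less RNA per cell cannot be told apart.

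**Figure D1:**
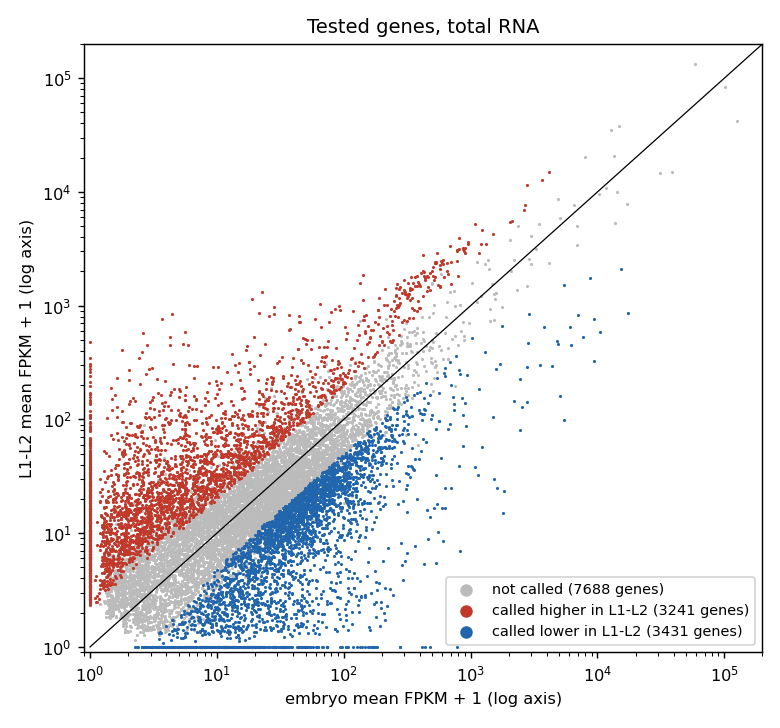
Mean FPKM + 1 of each tested gene in embryos (x, log axis) and in L1-L2 larvae (y, log axis), with 1 point per gene and the line of equal levels. Red marks the 3241 genes higher in larvae and blue the 3431 lower, and the points along the edges are genes at 0 in the 3 columns of 1 stage.

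The stage labels were checked against markers. Of 8 embryonic markers 6 were tested, and 5 were lower in larvae: pie-1, pos-1, mex-5, end-1 and sdz-23. Summed over all 8 markers, FPKM was 423 to 580 in the embryo columns and 5.25 to 13.2 in the L1-L2 columns. The 6 larval markers did not move as a group. The gut protease gene asp-1 and the collagen gene rol-6 were higher, cpr-6 did not pass the test, and the collagen genes dpy-7 and sqt-3 and the patched-related gene ptr-4 were lower. Markers of older animals were near 0 in both stages. The 6 vitellogenins, the yolk proteins of adults, summed to at most 4.15 FPKM in embryo columns and 10.4 in L1-L2 columns. Of the 35 major sperm protein genes, 27 had 0 reads in the 6 columns, and the sum was at most 8.01 and 24.9. The 7 late larval and adult collagens summed to at most 1.28 and 8.43, and 4 of them had 0 reads.

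The genes with the largest fall were embryonic transcripts that nearly vanished. The transthyretin-like gene ttr-50 (chromosome IV, 11640122 to 11640992, ce10) read 2086, 1542 and 1737 FPKM in the embryo columns and 9.38, 17.5 and 14.9 in the L1-L2 columns. All embryo columns lay above all L1-L2 columns. Its fold was 128 lower in larvae, at -6.93 ± 0.26 (SE) and a limma adjusted p of 6.12e-05. Skp1-related genes skr-9 and skr-12, which encode parts of ubiquitin ligases, had 221 and 216 embryo reads and 0 larval reads, at least 67.03-fold and 64.05-fold lower when 3 reads over the stage stand for 0. The bZIP factor gene zip-7 (182 reads against 0) and Y71A12B.11 (290 against 0) were at least 53.1-fold and 86.1-fold lower. The others among the 10 genes with the largest fall were C08F1.10, sdz-28, T16G12.4, C01G6.3 and C08F1.6, with 1 to 19 reads in larvae against 295 to 2676 in embryos. sdz-28 takes its name from transcripts that depend on the embryonic factor SKN-1.

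The 10 genes with the largest rise included 4 cuticle collagens. The first was col-147 (chromosome V, 9632247 to 9633313, ce10), with 0 reads in the 3 embryo columns and 581, 226 and 636 FPKM in the L1-L2 columns. It was at least 294-fold higher, with a limma adjusted p of 7.97e-05. The further collagens col-160, col-17 and col-42, were among the others, at 7.94, 7.82 and 7.58. The gene col-17 ranged widely between larval columns, at 74.1, 586 and 261 FPKM, while col-42 read 448, 454 and 443. Saposin-like genes spp-23 and spp-14, of a family of membrane-active proteins that includes gut antimicrobials, had means of 277 and 839 FPKM in larvae against 0 and 3.47 in embryos. fipr-1, a fungus-induced protein related gene, pud-3, C08E3.13 and F46F2.3 completed the 10, at 8.00 to 8.20.

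**Figure D2:**
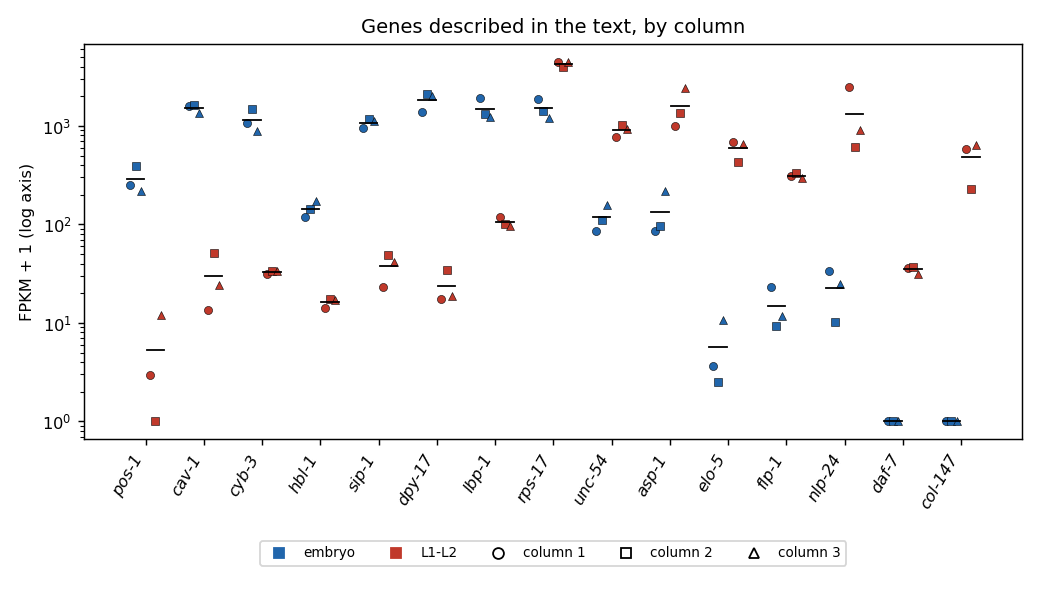
FPKM + 1 (y, log axis) of 15 genes described in the text, with 1 symbol per numbered column and a bar at the mean of 3 columns. The first 7 genes lie lower in L1-L2 larvae and the other 8 higher, and in none of the 15 do the columns of the stages overlap.

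Most genes of the list of early maternal and P granule genes were lower in larvae. Of its 26 genes, all tested, 0 were higher and 22 lower, with a median difference of -3.57. pos-1, which encodes a CCCH zinc finger protein that controls translation of maternal mRNAs, read 253, 393 and 216 FPKM in the embryo columns and 1.96, 0 and 10.9 in the L1-L2 columns. spn-4, an RNA-binding partner of the same pathway, dropped from 155 ± 26.2 to 4.61 ± 2.67 FPKM (mean ± SD of 3 columns). Each of these differences exceeded the spread between columns. The cold-shock domain genes cey-3 and cey-2 were 15.7-fold and 14.6-fold lower. nos-2, a Nanos homolog needed in the primordial germ cells, had 85 reads in embryos and 1 in larvae. Members that did not pass the test were glh-1, glh-2, glh-4 and pgl-3, which encode P granule proteins. For glh-1, a Vasa-like helicase, the columns overlapped, at 8.99, 14.7 and 13.9 against 32.9, 13.9 and 22.6 FPKM, and without L1-L2 column 2 it was higher.

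Genes of the oocyte and eggshell moved the same way, with 0 of 12 tested higher, 9 lower and a median of -1.90. The lower genes were 6 without embryo column 2 or embryo column 3, and 10 with quantile normalisation or voom. Only 7 of the 12 had at least 30 reads, and 6 of those were lower. The caveolin gene cav-1 was by far the most abundant, at 1603, 1615 and 1335 FPKM in embryos and 12.59, 50.2 and 23.4 in larvae. mbk-2, the kinase that marks oocyte proteins for destruction, was 3.45-fold lower. The eggshell proteoglycan gene cpg-1 varied between embryo columns, at 28.3, 17.5 and 98.9 FPKM, and stood at 4.61 to 5.62 in larvae. Of the list, chs-1, the chitin synthase, did not pass, at -0.36.

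All 30 cell cycle and replication genes were lower, with a median of -2.72. cyb-3, a B-type cyclin, read 1074, 1474 and 888 FPKM in embryos and 30.0, 32.6 and 32.4 in larvae, a 36.2-fold difference (limma adjusted p = 6.24e-05). cyb-1, another B-type cyclin, was 53.9-fold lower. rnr-2, a subunit of ribonucleotide reductase, and pcn-1, the replication clamp PCNA, were 13.02-fold and 10.01-fold lower. cki-1, an inhibitor of cyclin-dependent kinases that holds cells out of the cycle, was also lower, from 107 ± 24.5 to 25.3 ± 1.98 FPKM. A brake on division was thus lower along with its drivers.

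Core histone genes followed. Of 63, 35 were tested, 27 were lower and 2 higher, with a median of -3.28. Histone genes are near-identical copies, so how reads were split between copies is uncertain. his-64 read 12430, 29420 and 10220 FPKM in embryos and 667, 1018 and 897 in larvae, and his-62 fell from 10420 ± 2299 to 589 ± 153. The pair that were higher were his-37, at 1.07 and not called without embryo column 2 or L1-L2 column 1, and his-69, with 3 reads in larvae and 0 in embryos. his-71, a gene for a replication-independent H3.3 variant, did not pass, at 112.1 FPKM in embryos and 133.4 in larvae.

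In endoderm and mesoderm specification, 0 of 18 tested genes were higher and 10 lower, with a median of -2.14. pop-1, the TCF factor of the embryonic Wnt pathway, was 5.54-fold lower, and pal-1, a Caudal homolog of the posterior lineage, was 10.9-fold lower. The transient factors end-1, a GATA factor of the endoderm, and hnd-1, a mesodermal bHLH factor, had 27 and 39 reads in embryos and 0 in larvae. Among the members not called, skn-1, which serves stress responses in the gut, and the muscle factor unc-120 were under 2-fold, at -0.71 and -0.79. elt-2, the gut GATA factor, overlapped between stages at -0.81, and was lower without L1-L2 column 3.

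In the epidermal and seam list 5 of 15 tested genes were lower and 0 higher, with a median of -0.68. The Hox gene ceh-13 read 56.4 to 58.6 FPKM in embryos and 20.1 to 24.1 in larvae. lin-26, needed for epidermal fate, was 2.42-fold lower, though not called without embryo column 1 or 3, and elt-3, an epidermal GATA factor, did not pass at -0.24. Among 20 neuronal fate genes 10 were lower and 1 higher, with a median of -1.11. hlh-2, the partner of proneural bHLH proteins, was 11.02-fold lower, and ngn-1, the neurogenin homolog, had 62 reads in embryos and 0 in larvae. sem-4, a zinc finger factor, was the exception, at 17.1 ± 3.71 and 39.1 ± 3.87 FPKM. Across the ceh- homeobox family 22 of 53 tested genes were lower and 6 higher, led among the latter by the POU gene ceh-18 at 3.05. Of 193 tested nuclear hormone receptor genes 28 were higher, 20 lower and 145 not called, so fewer were called in either direction than among all genes. nhr-2, an early zygotic receptor gene, was the lower extreme, at 90.5 FPKM in embryos and 0.962 in larvae. Without embryo column 3 the receptor count was 13 lower, with a pseudocount of 5 it was 12 lower, and without L1-L2 column 1 it was 16 higher.

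Timing genes did not move as a group. Of 11 tested heterochronic genes, which set the order of larval stages, 3 were higher and 3 lower, with a median of -0.22. These shares are near those of all genes, so only single members are described. hbl-1, a hunchback homolog, read 117, 143 and 172 FPKM in embryos and 13.09 to 16.42 in larvae, and was 9.45-fold lower. lin-41, a TRIM-NHL protein gene repressed late in development, moved the other way, from 3.22 ± 1.09 to 38.2 ± 5.47 FPKM. The nuclear receptor gene daf-12 was 8.39-fold higher. lin-14 and lin-28, regulators of early larval fates, overlapped between stages at -0.22 and -0.11. The long non-coding gene lep-5 had 42.1, 4.16 and 74.5 FPKM in larvae, so its larval columns differed more than the stage means of 7.64 and 40.2.

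Cuticle genes split into a set that was high in embryos and a set that was high in larvae. Of 20 collagens known from mutants with altered furrows or body shape, 17 were tested, 7 were lower and 10 higher, and none was left uncalled. dpy-17 (chromosome III, 5107289 to 5108550, ce10) read 1371, 2092 and 2029 FPKM in embryos and 16.51, 33.79 and 17.57 in larvae, 80.9-fold lower. Along with it sqt-3, dpy-14, dpy-2, dpy-10, dpy-7 and dpy-3 were lower, dpy-3 not in 4 of the 6 fits without 1 column. The opposite holds for rol-6 (chromosome II, 8733000 to 8734264, ce10), with 0 reads in embryos and 36.6, 302 and 91.5 FPKM in larvae, at least 109-fold higher. rol-8, dpy-4 and sqt-1 also had 0 reads in embryos, and dpy-5, sqt-2, dpy-13 and lon-3 had 1 to 12.

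The larval columns did not share 1 level in these genes. dpy-5, rol-6, rol-8, sqt-1, sqt-2, dpy-4, dpy-13 and lon-3 were highest in L1-L2 column 2, as with dpy-5 at 35.3, 468 and 141 FPKM. dpy-2, dpy-3, dpy-7, dpy-8, dpy-9 and dpy-10, which build the annular furrows, were highest in L1-L2 column 3, as with dpy-7 at 10.2, 32.4 and 55.7 FPKM. This furrow group was set apart after its values were seen. Summed, it stood at 58.6, 178 and 435 FPKM in larvae and at 1055 to 1216 in embryos. Within it, dpy-8 and dpy-9 went against the rest, with dpy-9 at 6.96 to 8.31 FPKM in embryos and 20.3, 50.8 and 137 in larvae.

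**Figure D3:**
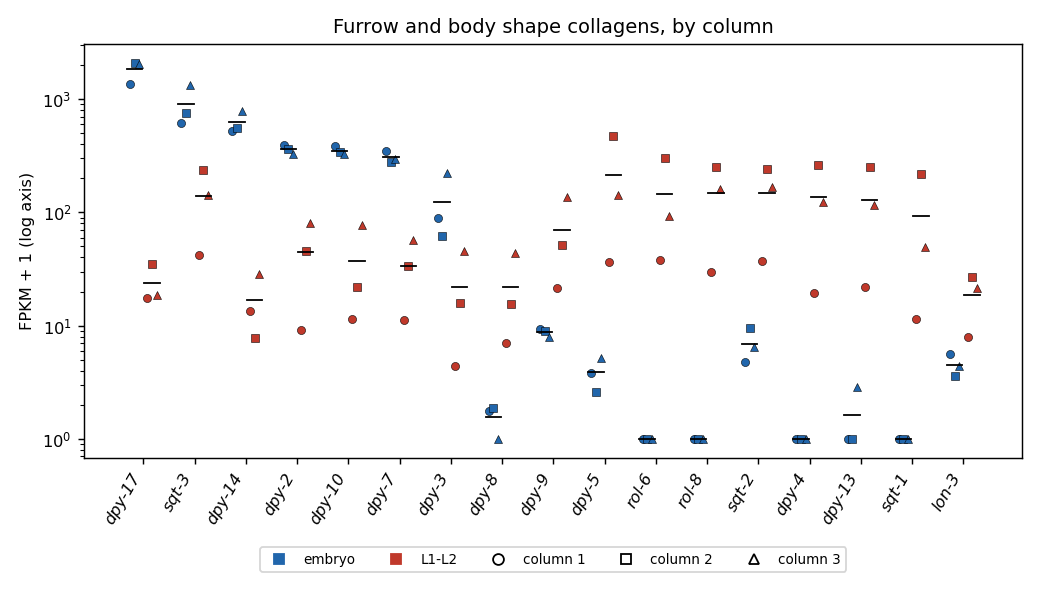
FPKM + 1 (y, log axis) of the 17 tested furrow and body shape collagens, with 1 symbol per numbered column and a bar at the mean. The 7 genes on the left are lower in L1-L2 larvae and the 10 on the right higher, and column 1 (circles) is the lowest larval column in every gene except dpy-14.

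The wider col- family was mostly higher. Of 153 genes, the tested ones gave 46 that were higher and 7 lower, with a median of 1.53. The most abundant were col-10, at 36.2 and 835 FPKM, and col-166, at 24.5 and 811 FPKM. The 7 lower ones were led by col-74, 454 ± 72.7 against 14.9 ± 5.08 FPKM, and col-165, 332 ± 84.1 against 30.0 ± 8.91.

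Apical matrix and moulting genes were mostly lower, 16 of 26 tested against 2 higher, with a median of -2.18. noah-1, a ZP-domain matrix protein gene, read 438, 407 and 369 FPKM in embryos and 20.8, 35.3 and 98.8 in larvae. noah-2, its paralog, and sym-1, a leucine-rich repeat protein of the matrix, were 9.30-fold and 4.70-fold lower. In the list of cuticlins and ZP proteins 11 of 32 were lower and 1 higher, the latter lost in 4 of the 6 fits without 1 column. cut-3, a cuticlin gene, was 60.1-fold lower, at 551 ± 103 against 9.15 ± 5.30 FPKM. The 2 moulting genes that were higher, nas-36 and nas-37, encode astacin proteases that open the old cuticle at the moult, and nas-37 had 0 reads in embryos and 33 in larvae. nas-36 was not called without embryo column 1 or 2. In the astacin family as a whole 12 of 25 tested genes were higher and 0 lower. Collagen modifying enzymes divided, 3 higher (1 without embryo column 2) and 4 lower of 11: the peroxidase gene mlt-7 was 15.2-fold higher, and the prolyl hydroxylase gene phy-2 was among the lower, though not without embryo column 1 or 3 or L1-L2 column 1.

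Moult regulators divided too, with 3 of 14 higher and 6 lower. myrf-1, a membrane-bound factor that starts the moult, was 2.54-fold higher and the receptor gene nhr-85 was 8.64-fold higher. blmp-1 and grh-1, factors of epidermis and cuticle, were 2.59-fold and 3.48-fold lower. lin-42, the period homolog, and nhr-23, the receptor that drives moults, overlapped between stages. Hedgehog-related peptides, small secreted proteins of the epidermis and glia, gave 8 higher and 13 lower of 34 tested. grd-10 went from 5.95 to 292 FPKM and wrt-1 from 206 to 19.8. Without embryo column 1 that list gave 8 lower. Patched-related genes, relatives of the Hedgehog receptor, gave 5 higher and 6 lower of 24, with a median of -0.27. These shares are near those of all genes. The list gave 3 lower without embryo column 1, embryo column 3 or L1-L2 column 1. Tubulins gave 5 higher and 2 lower of 16, with 1 to 4 lower when 1 column was left out.

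In the list of junction and basement membrane genes, 9 of 24 were lower and 2 higher, with a median of -0.78. emb-9, a type IV collagen of the basement membrane, read 398, 388 and 491 FPKM in embryos and 468, 552 and 444 in larvae, and so overlapped. The junction genes dlg-1 and hmp-1, the discs large and alpha-catenin homologs, were 2.84-fold and 3.41-fold lower. vab-10 and mup-4, which tie muscle to the cuticle through the epidermis, were the 2 higher, at 1.06 and 1.23, and neither was called without embryo column 1 or without L1-L2 column 2. mup-4 was also not called without embryo column 2. Axon guidance and adhesion genes gave 7 lower and 1 higher of 22. cam-1, a Ror receptor, fell from 142 ± 5.14 to 30.4 FPKM, the netrin gene unc-6 from 49.03 to 21.5 and its receptor unc-40 from 79.6 to 29.5. egl-20, a Wnt, was the exception, at 8.17 and 28.8 FPKM.

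Muscle genes were higher in larvae, 23 of 34 tested against 1 lower, with a median of 1.43. unc-54 (chromosome I, 14852481 to 14863529, ce10), the main body wall myosin heavy chain, read 84.5, 109 and 157 FPKM in embryos and 766, 1008 and 933 in larvae, at 2.97 ± 0.27 (limma adjusted p = 0.000319). myo-2, the pharyngeal myosin, was 10.4-fold higher and the light chains mlc-1 and mlc-2 were 3.81-fold and 3.89-fold higher. The lower gene was act-2, an actin, at 910, 1073 and 803 FPKM in embryos and 261, 232 and 245 in larvae. Actin genes are close copies, so the split of reads between act-2 and its relatives is uncertain. act-4, another of them, did not pass, at 503 and 869 FPKM, but was higher without embryo column 3.

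Of the FMRFamide-like peptide genes 28 of 30 were higher and 0 lower, with a median of 4.27. flp-1 read 22.2, 8.36 and 10.9 FPKM in embryos and 310, 334 and 293 in larvae, and flp-14 was 40.7-fold higher. Those that did not pass, flp-3 and flp-10, had 1 and 9 embryo reads. Neuropeptide-like protein genes gave 58 higher and 0 lower of 68, with a median of 3.25. nlp-24 (chromosome V, 11616265 to 11616869, ce10) was 61.4-fold higher, at 2467, 605 and 914 FPKM in larvae. nlp-33, at 3.91, belongs to a group of peptides made in the epidermis against infection rather than in neurons.

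The enzymes that process neuropeptides moved with them. The proprotein convertase egl-3, the carboxypeptidase egl-21 and the chaperone gene sbt-1 were 22.1-fold, 17.4-fold and 9.42-fold higher. In the wider synapse and transmitter list 17 of 27 tested genes were higher and 0 lower, with a higher median than all genes. ric-4, the SNAP-25 homolog, read 22.4 to 25.4 FPKM in embryos and 176, 94.3 and 178 in larvae. tdc-1, which makes tyramine, overlapped between stages. Of 32 tested cilium genes of sensory neurons 3 were higher and 2 lower, with a median of 0.15 that was -0.05 with quantile normalisation. Without embryo column 1, embryo column 2 or L1-L2 column 3, or with a pseudocount of 5, 1 was higher, while 5 were with equal medians and 7 with voom. odr-3, a G protein of olfaction, was higher at 1.86, though not in 4 of the 6 fits without 1 column, and dyf-7, needed to anchor growing dendrites, lower at -2.98. Of the 956 chemoreceptor genes 117 were tested, 41 higher and 7 lower, with a median of only 6 reads. Genes this low can pass the filter through 1 stage alone, so these calls are not independent of the filter. With a pseudocount of 5 the 117 genes gave 12 higher and 2 lower, and 24 were higher with quantile normalisation. Only 8 had at least 30 reads, 8 of them higher and 0 lower.

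Gut genes were higher, 25 of 30 tested and 0 lower, with a median of 3.34. asp-1, an aspartic protease gene, read 85.6, 95.6 and 220 FPKM in embryos and 989, 1354 and 2411 in larvae. asp-6 was 10.9-fold higher, spp-5 11.1-fold and act-5, the actin of the gut microvilli, 5.56-fold. The cysteine proteases cpr-4 and cpr-1, which are digestive enzymes, had 8 and 4 reads in embryos and 991 and 539 in larvae. Among the exceptions cpl-1, a cathepsin L that embryos need, did not pass, at 350 and 243 FPKM.

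Lipid genes gave 21 higher and 1 lower of 30, with a median of 2.64. The elongase elo-5, which makes branched-chain fatty acids, read 2.662, 1.504 and 9.752 FPKM in embryos and 686, 428 and 651 in larvae, 127-fold higher. The desaturases fat-2 and fat-6 were 91.4-fold and 137-fold higher. acdh-1, an acyl-CoA dehydrogenase that responds to diet, was high in larval columns 1 and 2, at 811 and 747 FPKM, and at 32.7 in column 3. fasn-1, the fatty acid synthase, did not change detectably, at 319 ± 30.4 and 281 ± 15.1 FPKM. lbp-1, a secreted fatty acid binding protein gene, was the 1 lower, at 1897, 1334 and 1234 FPKM in embryos and 118.3, 100.6 and 95.4 in larvae.

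Genes of central carbon metabolism gave 16 higher and 2 lower of 29. The GAPDH genes split by isoform. gpd-1 and gpd-4 were 25.9-fold and 23.9-fold lower, while gpd-2 and gpd-3 were 5.06-fold and 3.49-fold higher. All 4 embryo and larval ranges were separate, though each pair is a near-identical copy and reads between its members may be shared. cts-1, citrate synthase, and mdh-2, malate dehydrogenase of the mitochondrion, were 3.002-fold and 7.66-fold higher. icl-1, the glyoxylate cycle enzyme that turns fat into sugar, overlapped at 378 and 307 FPKM. In the methionine cycle 7 of 16 were higher and 1 lower. ahcy-1, which clears S-adenosylhomocysteine, read 117, 145 and 308 FPKM in embryos and 1337, 1153 and 991 in larvae.

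Nuclear genes of the respiratory chain gave 16 higher and 1 lower of 33. atp-2 and atp-1, subunits of the ATP synthase, stood at 345 and 237 FPKM in embryos and 1163 and 940 in larvae. Its count was 10 higher without embryo column 1, or without L1-L2 column 3. The 11 mitochondrially encoded genes gave 0 higher and 0 lower by limma, with a median of 0.41, 1 unadjusted p under 0.05, and 2 higher by voom.

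Ribosomal protein genes were higher nearly without exception. All 27 tested genes of the small subunit and 35 of 36 of the large subunit were higher, each list with a median of 2.04. With quantile normalisation 23 and 32 were higher, at medians of 1.58 and 1.65, and without L1-L2 column 3 the counts were 25 and 32. rps-17 read 1887, 1423 and 1211 FPKM in embryos and 4409, 3955 and 4455 in larvae. rpl-39 was 4.86-fold higher. The exception was rpl-41.1, at 1199, 1094 and 1575 FPKM in embryos and 456, 297 and 412 in larvae. Its paralog rpl-41.2 went the other way, at 2700 ± 370 and 7701 ± 625 FPKM, and reads may be shared between them. By contrast the 33 tested proteasome genes gave 0 calls in either direction, with a median of -0.25, 6 unadjusted p under 0.05 and 0 calls by voom. Quantile normalisation called 1 in each direction. pas-5, a core subunit, stood at 244 and 207 FPKM. Vacuolar ATPase genes gave 8 of 20 higher and 0 lower.

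**Figure D4:**
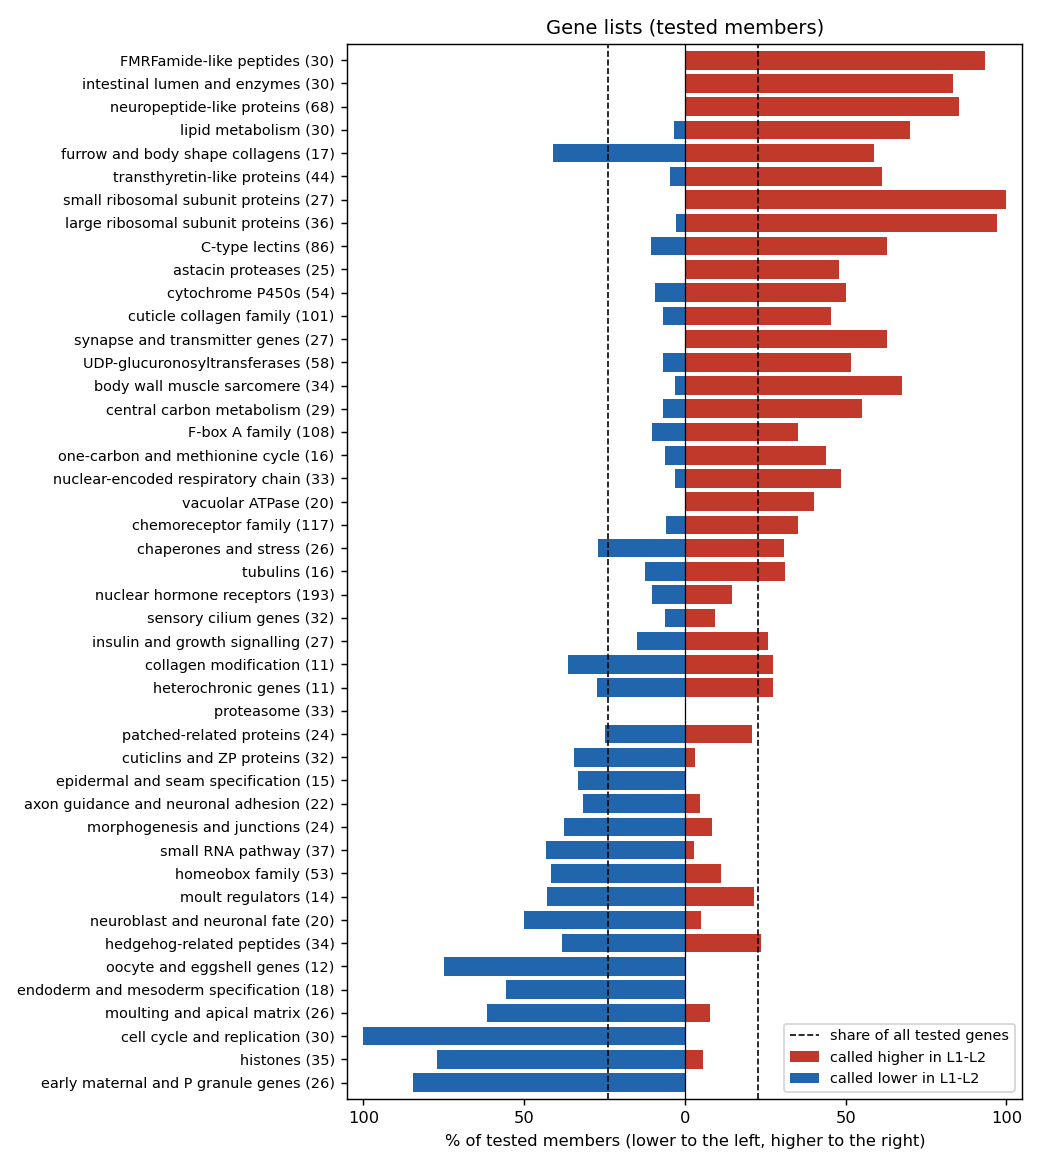
Share of tested members called lower (blue, to the left) and higher (red, to the right) in L1-L2 larvae for each gene list with at least 10 tested members, ordered by median difference. Dashed lines mark the shares over all tested genes, 23.9% lower and 22.6% higher. Maternal, histone and cell cycle genes lie at the bottom, and neuropeptide and gut genes at the top.

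Genes that handle foreign compounds and microbes were more often higher than lower. C-type lectins gave 54 higher and 9 lower of 86 tested, and the most abundant of them were among the lower: clec-266 and clec-87, at 603 and 532 FPKM in embryos and 7.471 and 4.505 in larvae. Cytochrome P450 genes gave 27 higher and 5 lower of 54, and UDP-glucuronosyltransferases 30 and 4 of 58. The lower P450 genes were 3 without any 1 embryo column or without L1-L2 column 3, and the lower transferases 2 without embryo column 1. Transthyretin-like genes gave 27 higher and 2 lower of 44, with ttr-15 at 27.3 and 974 FPKM against ttr-50 described above. The F-box A family gave 38 higher and 11 lower of 108, at a median of 13 reads, and with a pseudocount of 5 it gave 16 and 4. With quantile normalisation 25 were higher. Here too, genes this low can pass the filter through 1 stage alone. Of the 19 with at least 30 reads, 9 were higher and 4 lower.

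Of 26 tested chaperone and stress genes 8 were higher and 7 lower, shares near those of all genes. hsp-1, the constitutive Hsp70, was 2.95-fold higher, and the mitochondrial chaperones hsp-60 and hsp-6 were 4.66-fold and 3.92-fold higher. sip-1, a small heat shock protein of embryos, read 953, 1172 and 1110 FPKM in embryos and 22.2, 48.3 and 40.4 in larvae. hsp-12.1 and hsp-16.41, other small heat shock proteins, were 3.88-fold and 3.69-fold lower. In insulin and dauer signalling 7 of 27 were higher and 4 lower, with a median of 0.13. The share higher is near that of all genes, and the share lower is smaller. daf-7, the TGF-beta ligand that sensory neurons make to promote reproductive growth, had 0 reads in embryos and 35.1, 36.0 and 30.4 FPKM in larvae. daf-28, an insulin, had 0 and 17 reads. With a pseudocount of 5 the list gave 4 higher and 2 lower.

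Small RNA pathway genes were mostly lower where called. Of 37 tested, 16 were lower, 1 was higher and 20 were not called, with a median of -0.89. ergo-1, the Argonaute of a class of embryonic small RNAs, read 128.8, 202 and 122.3 FPKM in embryos and 17.32, 16.23 and 19.11 in larvae. nrde-3, the Argonaute that carries small RNAs into the nucleus, was 7.76-fold lower. The editing genes adr-1 and adr-2 were both lower, adr-2 from 52.2 ± 2.23 to 24.7 ± 4.01 FPKM. adr-2 lay near 2-fold, at -1.06, and was not called without L1-L2 column 2, with equal medians or with quantile normalisation. adr-2 encodes the deaminase and adr-1 a relative that binds its substrates. dcr-1, Dicer, did not pass, at 25.8 and 18.0 FPKM. sid-2, which takes up dsRNA from the gut lumen, was the 1 higher, at 5.63 and 22.9 FPKM.

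Protein-coding genes were called unevenly by chromosome. On chromosome V 32.3% of tested genes were higher and 17.7% lower, and on chromosome I 14.1% were higher and 30.1% lower. On X the shares were 27.6% and 21.1%. Of 116 tested snoRNA genes, whose products guide RNA modification, 38 were higher and 4 lower. Of 46 tested snRNA genes of the spliceosome 0 were higher and 11 lower. The lower ones made up 23.9%, the same share as over all tested genes. snRNA genes held 1.32% ± 0.145 of gene reads in embryos and 1.77% ± 0.741 in larvae (SD, n = 3), with overlapping columns. No fall of snRNA as a class was therefore seen. Both kinds are short, and many snRNA genes are repeated copies.

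EERs have rows of their own in the table, and reads in an EER can also be counted in the gene around it. Of the 1057 tested 57 (5.39%) were higher in L1-L2 larvae and 163 (15.4%) lower, with a median of -0.44, or 20.8% in all. The larval columns lay above the embryo columns in 7.66% and below them in 20.2%. These shares are smaller than those of genes, and the median EER had 11 reads against 83. Of the 229 EERs with at least 30 reads over the 6 columns, 13 were higher and 75 lower. EERs that the study listed in embryos alone gave 3 higher and 75 lower of 239 tested, and those listed in L1-L2 larvae alone gave 29 higher and 2 lower of 143. Those lists were drawn up on these stages, so this is not independent of the stage.

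The largest falls were regions present in embryos and nearly gone in larvae. EA6_EER564- (chromosome II, 12755776 to 12755848, ce10), within the span of Y46G5A.7, read 753, 574 and 334 FPKM in embryos, or 85 reads, and 0 in larvae. That is at least 24.3-fold lower, and its host gene stood at -5.62. EA6_EER344+ (chromosome I, 10824846 to 10825238), within C35E7.5, had 169 and 2 reads, and its host stood at -5.27. EA6_EER484+, EA6_EER851- and EA6_EER463- had 184, 267 and 32.3 mean FPKM in embryos against 0, 6.48 and 0.285, and none lay wholly within a tested protein-coding span.

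Rises were smaller. EA6_EER1446- (chromosome V, 18555435 to 18556203), within the transthyretin-like gene ttr-24, read 20.0, 7.52 and 7.31 FPKM in embryos and 125, 74.2 and 71.2 in larvae. ttr-24 itself stood at 25.7 and 180 FPKM. EA6_EER1363- (chromosome V, 6171830 to 6172692) lies within ttn-1, the titin homolog, and was 4.28-fold higher against 2.07-fold for the gene. EA6_EER1400-, EA6_EER306- and EA6_EER1105-, within T10G3.1, C50F2.4 and the calcium pump gene mca-3, stood at 2.32, 1.52 and 1.34. EA6_EER1105- was not called with 4 of the 6 columns left out in turn, and the calls of all 3 were lost when EERs were fitted alone.

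EER and host gene mostly differed in the same direction. Over 159 EERs with at least 30 reads in 136 tested protein-coding hosts, the difference of the EER and that of the host had a Pearson correlation of 0.88 and a Spearman correlation of 0.82. The points share columns and may share reads, so this is a description. A host was matched by position without regard to strand, so it may lie on the strand opposite to the EER. Where more than 1 tested span held an EER, the gene with the most reads was taken. Counting the host once per EER, 51 of the 159 hosts were lower and 11 higher. Of 50 EERs that were lower, 37 had a host that was lower, 13 a host that was not called and 0 a host that was higher. Of 13 that were higher, 9 had a host that was higher. src-1, the Src kinase gene, holds EA6_EER124+ and EA6_EER125+, and gene and EERs stood at -2.002, -1.97 and -2.26. ani-1, an anillin of the cleavage furrow, stood at -2.44 with EA6_EER867- at -2.63. dhs-9, a dehydrogenase gene, was a discordant case, at 0.41 with EA6_EER753- at -1.97 (41 and 9 reads). Whether the gene and the EER differ from each other was not tested.

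**Figure D5:**
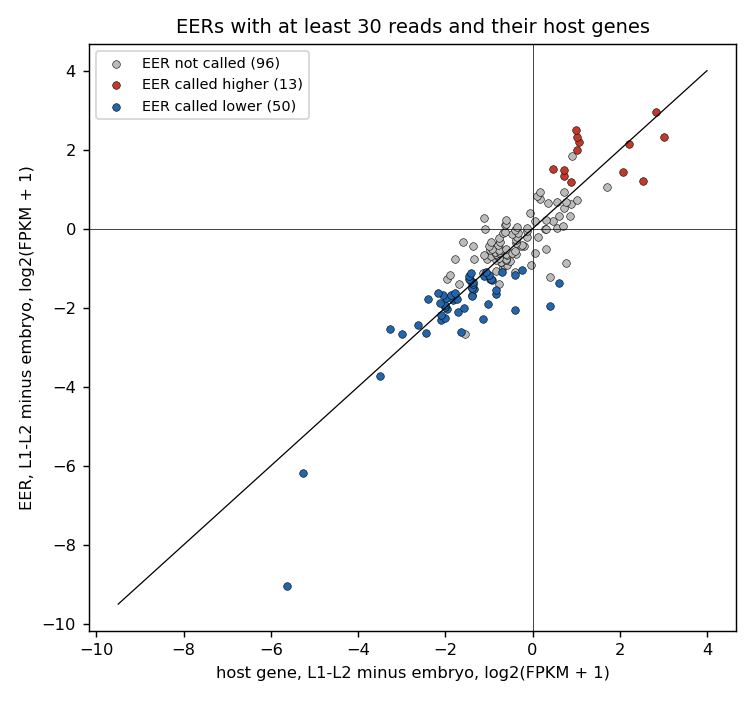
Difference of 159 EERs with at least 30 reads (y) against that of the host gene (x), both L1-L2 minus embryo on the log2(FPKM + 1) scale, with the line of equal differences. The 50 EERs lower in larvae (blue) lie mostly to the left of 0, and the 13 higher (red) lie to the right.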

How the data were processed

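The authors deposited FPKM, a fragment count corrected for the length of a feature and for library size, for total RNA and for RNA pulled down with a dsRNA antibody. Only the 6 total RNA columns of embryos and L1-L2 larvae were compared here, and 0 value columns were left unmapped. Libraries were stranded, from fragmented RNA, per the labels' protocols. Per the submitters' processing notes, Novoalign, bedtools 2.19.0, SAMtools 0.1.19 and build ce10 were used. Use of strand in the counting step is not given in the sources used here. The deposited region lists carry a score per EER, which was not used; their positions were. Table starts count from 0, and are printed from 1.

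Steps between FPKM values gave whole reads: 100.0% of values above 0 came within 0.05 of a whole number. These reads serve as depth and for 1 alternative. Sequence names were matched to symbols of WBcel235 for 25092 of 25509 genes. No position was taken from it.

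Values on the log2(FPKM + 1) scale were tested two-sided with limma 3.58.1 (R 4.3.3), using a trended eBayes step, with Benjamini-Hochberg adjustment over all tested genes and EERs and a filter of FPKM 1 in 3 columns. The procedure was also run on simulated data as a check of the code alone, and its outcome is not used here. A stage with 0 reads was given 3 reads for a bound on the fold.

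The members and lists were chosen with earlier results of these data known. The rule for names took, in each direction, the 10 called genes of largest difference with at least 100 reads in the higher stage, the 5 such EERs with at least 30, and of each list the 2 to 4 most abundant members and those against the list. Other genes named were chosen after their values were seen. The chemoreceptor pattern was narrowed after the data were seen, since it took in unrelated genes. Heterochronic microRNAs were not analysed here, and 1 gene of the signalling list is not reported here. Alternatives tried were other pseudocounts (0.5 and 5), a filter of FPKM 10 or none, equal medians, quantile normalisation, all 12 total RNA columns, the column number as block, no trend, voom, genes or EERs alone, 4-fold, each column left out, and, added later, a minimum of 30 reads.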

Additional observations from a re-analysis of the deposited data

How the results depend on the processing

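Higher and lower genes numbered 3506 and 3170 with equal medians, 3171 and 3141 with quantile normalisation and 3522 and 3637 with voom. A filter of FPKM 10 gave 2121 genes higher, and 23 EERs higher and 91 lower. A minimum of 30 reads, added after the data were seen, gave 14 EERs higher and 82 lower, and EERs fitted alone gave 25 and 57. At 4-fold, 2028 genes were higher and 1690 lower, with 41 EERs higher and 87 lower. Leaving out 1 column gave 2728 to 3036 genes higher and 3004 to 3339 lower, and 39 to 55 EERs higher and 115 to 149 lower. The cause of these differences was not tested.

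Of 199 named features, 20 lost their call under at least 1 alternative. These were EA6_EER1105-, EA6_EER1400-, EA6_EER306-, T10G3.1, adr-2, ceh-13, dpy-3, his-37, his-69, lin-26, lon-3, mup-4, nas-36, odr-3, phy-2, sdz-23, sem-4, ttn-1, unc-6 and vab-10. A call was gained 8 times, for lep-5, flp-3, act-4, cpr-6, glh-1 and elt-2. Sign changed 9 times, for 4 genes without a call. nhr-23 was 0.0252 with equal medians, 0.0328 with voom and -0.346 to 0.329 with 1 column left out. lin-28 was 0.0043 with equal medians, 0.157 with quantile normalisation and -0.308 to 0.212 with 1 column left out. With quantile normalisation elt-3 was 0.0627 and emb-9 -0.196. Depth limits the EERs, at a median of 11 reads.

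Same-numbered columns of the 2 stages deviated together at 0.345, 0.207 and 0.081 in correlation, over the 2919 features with a mean of at least 50 reads. Each L1-L2 column correlated best with the embryo column of its own number, while embryo column 3 correlated best with L1-L2 column 2, at 0.132. The numbers were not taken to pair the samples, and whether they mark a shared batch was not tested. With the column number as a block, 3106 genes were higher and 3332 lower, and 53 EERs were higher and 149 lower.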
